A study of Mus musculus with 14 samples.

Results

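The Ifitm genes encode interferon-induced transmembrane proteins, small membrane proteins that make it harder for enveloped viruses to fuse with the cell. IFITM1 sits mainly in the plasma membrane, while IFITM2 and IFITM3 are sorted to endosomes and lysosomes, where many viruses enter, and IFITM3 is known for limiting influenza infection. Interferons raise the transcription of several of these genes through the interferon-stimulated response element (ISRE), bound by interferon regulatory factors, and the gamma-activated site (GAS), bound by STAT proteins, and myeloid cells can hold Ifitm transcripts without infection. The 4 genes described are Ifitm1, Ifitm2, Ifitm3 and Ifitm6, found by symbol among 24980 genes of a dendritic cell table and 17118 genes of a table of monocytes and macrophages. They were chosen by their measured values in these same libraries, so their levels and changes are given as descriptions with no test.

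RNA sequencing was done on bone marrow cells sorted from Cx3cr1 gfp/+ mice, in which GFP replaces 1 allele of a chemokine receptor gene. The series text calls the treated mice wild type. Dendritic cells (high GFP, high MHC class II, high CD11c, without Gr-1 and B220) came from mice given a single dose of PAM3CSK4, a lipopeptide agonist of Toll-like receptors 1 and 2 (4 libraries), or vehicle (4 libraries). Macrophages (no GFP, high MHC class II, CD169-positive, without Gr-1 and B220; 3 libraries) and monocytes (high GFP, CD115-positive, without B220, low and high Gr-1 together; 3 libraries) were taken at baseline. Neither the dose, the time after it, the age of the mice nor their number is given in the labels. Since separate mice are not stated for replicate libraries, p-values and standard errors measure the spread between libraries, which may be technical.

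The values were deposited under the name FPKM but are treated as CPM, read counts scaled to a common library total with no division by gene length. The grounds for this are given with the processing. If the smallest step between values is 1 read, 1 CPM stood for 28.2 to 75.2 reads in the 14 libraries. Labels were checked against marker genes. In the dendritic cell table, PAM3CSK4 replicate 4 stood apart. Its 16 neutrophil genes summed to 12176 CPM, against 668 to 1631 CPM in the other PAM3CSK4 libraries and 621 to 1093 CPM with vehicle. Its 15 genes of conventional dendritic cells summed to 1188 CPM, against 5183 to 6531 CPM in the other PAM3CSK4 libraries and 10937 to 14220 CPM with vehicle, and Itgax, which encodes the sorting marker CD11c, was at 27.5 CPM there. Macrophage libraries held 576 to 8545 CPM of 12 B and plasma cell genes, against 112 to 128 CPM in monocytes. Siglec1, which encodes CD169, was at 18.6 to 25.2 CPM in macrophages and 2.20 to 34.7 CPM in monocytes. The gene of this gating marker did not separate the groups. Of 14 macrophage genes tested, Siglec1 among them, 6 were higher and 1 lower in macrophages (adjusted p under 0.05 in the limma fit described below). Their median log2 change was 1.27, beside 0.10 for all genes tested. The sums over this list overlapped, at 361 to 552 CPM in macrophages and 128 to 479 CPM in monocytes.

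Ifitm2, Ifitm1, Ifitm3 and Ifitm6 lie in this order on mouse chromosome 7, with Ifitm1 on the plus strand and the others on the minus strand. In mm10 the deposited coordinates place Ifitm2 at chr7:140954839-140955961, Ifitm1 at chr7:140967429-140969827, Ifitm3 at chr7:141009590-141010744 and Ifitm6 at chr7:141015812-141016892. The promoter stretches below are shown because the members differ in the interferon-response letters they hold. Each is 100 bases from RefSeq (GRCm38.p6), 5′ to 3′ on the gene's strand, at chr7:140955954-140956053 for Ifitm2, chr7:140968006-140968105 for Ifitm1, chr7:141010695-141010794 for Ifitm3 and chr7:141016849-141016948 for Ifitm6. Capitals mark the ISRE core (2 GAAA repeats with 2 free bases between them) and the GAS (TTCNNNGAA).
Ifitm2: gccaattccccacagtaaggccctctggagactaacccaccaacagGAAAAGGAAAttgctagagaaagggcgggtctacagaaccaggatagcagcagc
Ifitm1: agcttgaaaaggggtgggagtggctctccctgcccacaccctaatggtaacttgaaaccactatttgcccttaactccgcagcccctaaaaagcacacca
Ifitm3: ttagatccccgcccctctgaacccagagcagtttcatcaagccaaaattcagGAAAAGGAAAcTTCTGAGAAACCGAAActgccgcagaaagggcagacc
Ifitm6: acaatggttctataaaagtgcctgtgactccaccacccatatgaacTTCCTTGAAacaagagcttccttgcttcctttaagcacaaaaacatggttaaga

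Both strands were searched over the 300 bases from 250 before to 50 after the RefSeq start base, for all 4 members. The Ifitm2 stretch held 1 ISRE core, GAAAAGGAAA, which begins 46 bases before the start. The Ifitm3 stretch held the same letters from 2 bases after the start and a second core, GAAACCGAAA, whose first bases overlap the end of a GAS, TTCTGAGAA. Ifitm6 held a GAS, TTCCTTGAA, and no ISRE core, and Ifitm1 held neither. Of 32851 mouse promoter stretches of the same length, 3.44% held an ISRE core and 8.30% a GAS. The start base used for Ifitm1 lies inside the gene span of the deposited table, and that used for Ifitm2 lies inside its RefSeq gene span, which begins at 140959686 on the minus strand, so the bases before those outer starts were not examined. A match is a run of letters and not a measured binding site.

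In dendritic cells, Ifitm1 changed most of the 4 genes. It was at 47.0, 20.2, 20.3 and 32.1 CPM in PAM3CSK4 replicates 1 to 4, against 2.98, 1.10, 1.70 and 2.87 CPM in vehicle replicates 1 to 4. The lowest PAM3CSK4 library lay well above the highest vehicle library. The means were 29.9 ± 12.7 CPM with PAM3CSK4 and 2.16 ± 0.917 CPM with vehicle (SD, n = 4 each), a ratio of 13.8. On the log2(CPM + 1) scale, which understates the change of low genes, the change was 3.25 ± 0.32 (SE), and it lay between 3.01 and 3.40 with any 1 library left out. Among 11377 genes tested, that was the 12th from the top.

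Ifitm2, the endosomal member nearest in place to Ifitm1, was higher with PAM3CSK4 by a smaller factor. It was at 127, 176, 172 and 137 CPM in PAM3CSK4 replicates 1 to 4, against 65.4, 82.7, 101 and 105 CPM in vehicle replicates 1 to 4. The groups did not overlap. In the values as deposited, the gap between the lowest PAM3CSK4 and the highest vehicle library was small beside the spread. Sums over all genes differed between libraries, from 350368 CPM in vehicle replicate 1 to 532242 CPM in PAM3CSK4 replicate 2. The log2 change was 0.79 ± 0.22, and 0.66 to 0.88 with any 1 library left out. The median log2 change of all genes tested was 0.20. The change of Ifitm2 was 0.57 with each library centred on its median and 0.65 with totals rescaled.

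Ifitm3 was lower in the mean with PAM3CSK4, but its groups overlapped in the values as deposited. It was at 88.4, 149, 143 and 177 CPM in PAM3CSK4 replicates 1 to 4, against 155, 204, 244 and 251 CPM in vehicle replicates 1 to 4. PAM3CSK4 replicate 4 exceeded vehicle replicate 1, and the other PAM3CSK4 libraries lay below every vehicle library. Summed over all genes, vehicle replicate 1 had the lowest total of the dendritic cell libraries, 350368 CPM, against 466401 CPM in PAM3CSK4 replicate 4. The log2 change was -0.63 ± 0.26, with -0.77 to -0.43 when any 1 library was left out. It was -0.77 with totals rescaled and -0.85 after median centring.

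Ifitm6, a less studied member, overlapped between the groups. It was at 17.4, 20.6, 17.8 and 168 CPM in PAM3CSK4 replicates 1 to 4, against 17.6, 23.4, 43.4 and 32.2 CPM in vehicle replicates 1 to 4. A single library, PAM3CSK4 replicate 4, was high, and the other PAM3CSK4 libraries lay below all vehicle libraries but replicate 1. The log2 change of 0.23 ± 0.61 became -0.55 without PAM3CSK4 replicate 4 and lay between 0.02 and 0.52 without any other library. That library is the one with the raised neutrophil genes: Mpo and Elane, which encode enzymes of neutrophil granules and their precursors, were at 1350 and 245 CPM there, against 62.5 to 99.2 CPM and 9.35 to 18.2 CPM in the other PAM3CSK4 libraries and 120 to 331 CPM and 17.5 to 63.1 CPM with vehicle. S100a9, a neutrophil calcium-binding protein, was at 1700 CPM there, against 81.7 to 263 CPM in the other PAM3CSK4 libraries and 56.8 to 82.0 CPM with vehicle. Ly6g, which encodes the mature neutrophil marker within Gr-1, was at 2.48 CPM in that library and at most 0.264 CPM in the other dendritic cell libraries. Of the 13 neutrophil genes tested, 1 rose and none fell (Csf3r, log2 change 1.40 ± 0.36, adjusted p = 0.048, a call that 7 of the 8 leave-one-out fits did not keep), and 4 were called without that library. The part of these cells in the Ifitm6 value was not tested, and in bulk samples fewer cells of a type and less RNA per cell cannot be told apart.

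**Figure D1:**
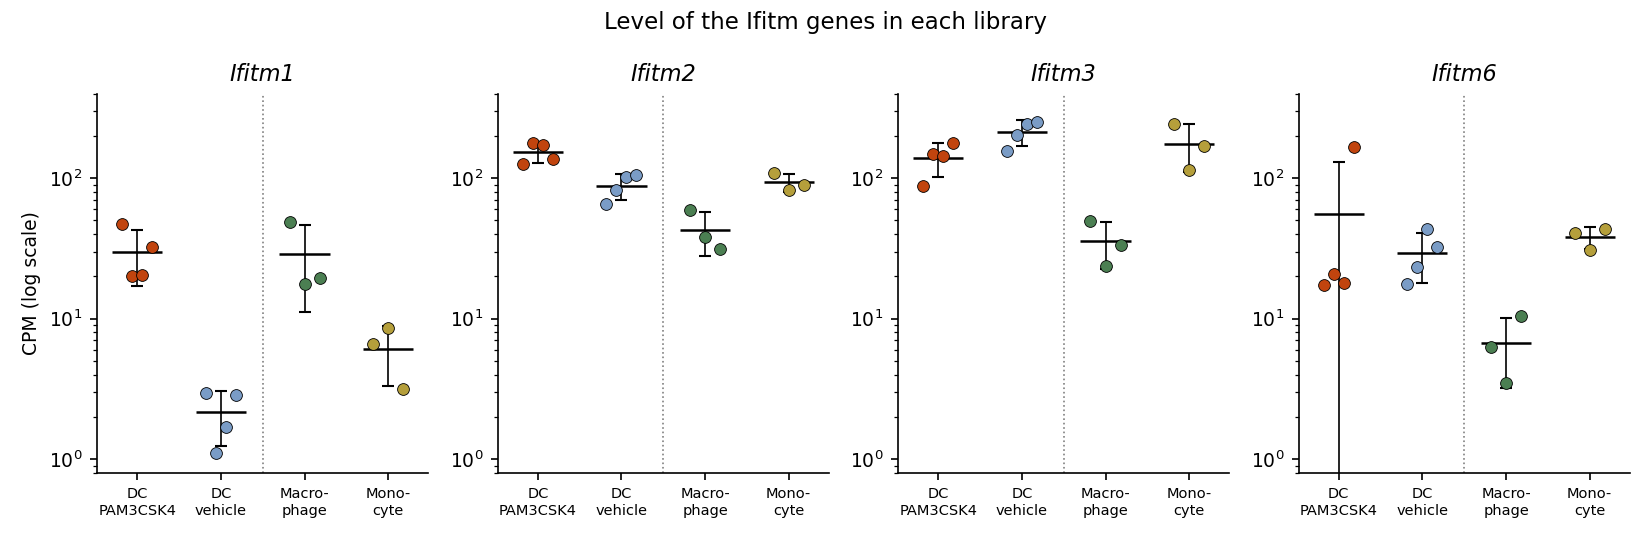
Level of Ifitm1, Ifitm2, Ifitm3 and Ifitm6 in each library, in CPM on a log scale, with 1 point a library and the mean ± SD as a bar (n = 4 for each dendritic cell group, 3 for macrophages and monocytes). The dotted line parts the 2 deposited tables. Ifitm1 separates PAM3CSK4 from vehicle and macrophages from monocytes, and the lower end of the Ifitm6 bar with PAM3CSK4 (55.9 ± 74.6 CPM) runs off the axis because a single library lies at 168 CPM.

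**Figure D2:**
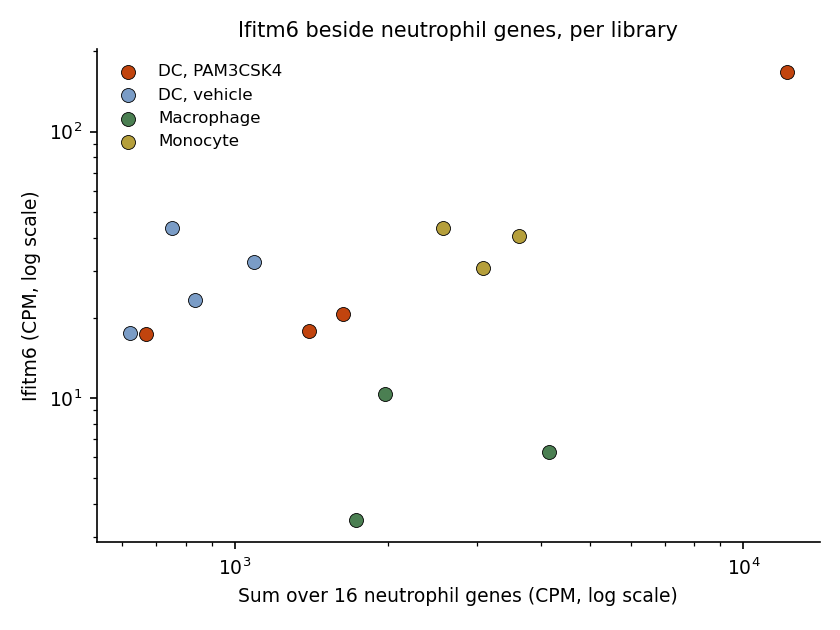
Ifitm6 (vertical axis, CPM) beside the summed level of 16 neutrophil genes (horizontal axis, CPM), both on log scales, with 1 point a library. PAM3CSK4 replicate 4 lies alone at the upper right (168 and 12176 CPM), and the macrophage libraries hold the lowest Ifitm6 values (3.48 to 10.4 CPM) at neutrophil sums that overlap those of monocytes. Those sums cover changes in both directions, with 8 of 13 tested genes higher and 4 lower in macrophages.

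By the threshold used across the whole table (adjusted p under 0.05), 1 of the 4 members was called in dendritic cells, Ifitm1 as higher, where 5.12% of all genes tested were called (321 higher and 261 lower). The members were picked from these contrasts, so nothing is read from that count. Beyond Ifitm1, the groups did not overlap for Ifitm2, as for 14.8% of all genes tested.

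Markers of other cells moved with PAM3CSK4 beside the Ifitm genes. Of 8 plasmacytoid dendritic cell genes tested, 4 rose and none fell, with sums over the list of 393, 143, 525 and 82.3 CPM in PAM3CSK4 replicates 1 to 4, against 56.5 to 112 CPM with vehicle. Among them Ly6d rose by 3.94 ± 0.64 (adjusted p = 0.0076) and kept its call with any 1 library left out. Of 8 erythroid genes tested, 3 rose and none fell, with a median log2 change of 2.59 and sums of 90.4, 373, 261 and 1037 CPM in PAM3CSK4 replicates 1 to 4, against 17.9 to 184 CPM with vehicle. Both sums overlapped between the groups, the first because of PAM3CSK4 replicate 4 and the second because of vehicle replicate 4. Of 11 progenitor genes, 2 rose and none fell, with sums of 222 to 426 CPM with PAM3CSK4 and 286 to 503 CPM with vehicle. Of 8 endothelial and stromal genes, 2 rose and 1 fell, with sums of 78.61 to 149 CPM with PAM3CSK4 and 35.7 to 78.56 CPM with vehicle. Of 15 conventional dendritic cell genes, none rose and 3 fell. The part of these cells in the Ifitm values was not tested.

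The make-up of the family differed between treatments. Levels per kilobase of the longest coding transcript were used to compare the genes. Ifitm1 and Ifitm6 have several coding transcripts of different length, so the shares depend on that choice. With the shortest, the mean of Ifitm1 was 53.4 in place of 33.9 CPM per kilobase with PAM3CSK4, and 51.2 in place of 32.5 in macrophages. With the longest, Ifitm3 made up 32.7% to 40.9% of the summed level of the 4 members with PAM3CSK4, against 63.2% to 65.8% with vehicle. Ifitm2 made up 29.2% to 50.6% with PAM3CSK4 and 27.1% to 28.3% with vehicle. Ifitm1 made up 4.26% to 13.4% with PAM3CSK4 and 0.273% to 0.957% with vehicle, and these ranges did not overlap for any of the 3 genes. In PAM3CSK4 replicate 4, Ifitm6 reached 29.0%, against 6.12% to 9.35% with vehicle. Vehicle libraries were close to each other in their shares of Ifitm2 and Ifitm3. The summed level of the 4 members, in CPM without regard to length, was 280, 366, 353 and 514 CPM in PAM3CSK4 replicates 1 to 4 and 241, 311, 391 and 391 CPM in vehicle replicates 1 to 4, so the sums overlapped where the shares did not.

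**Figure D3:**
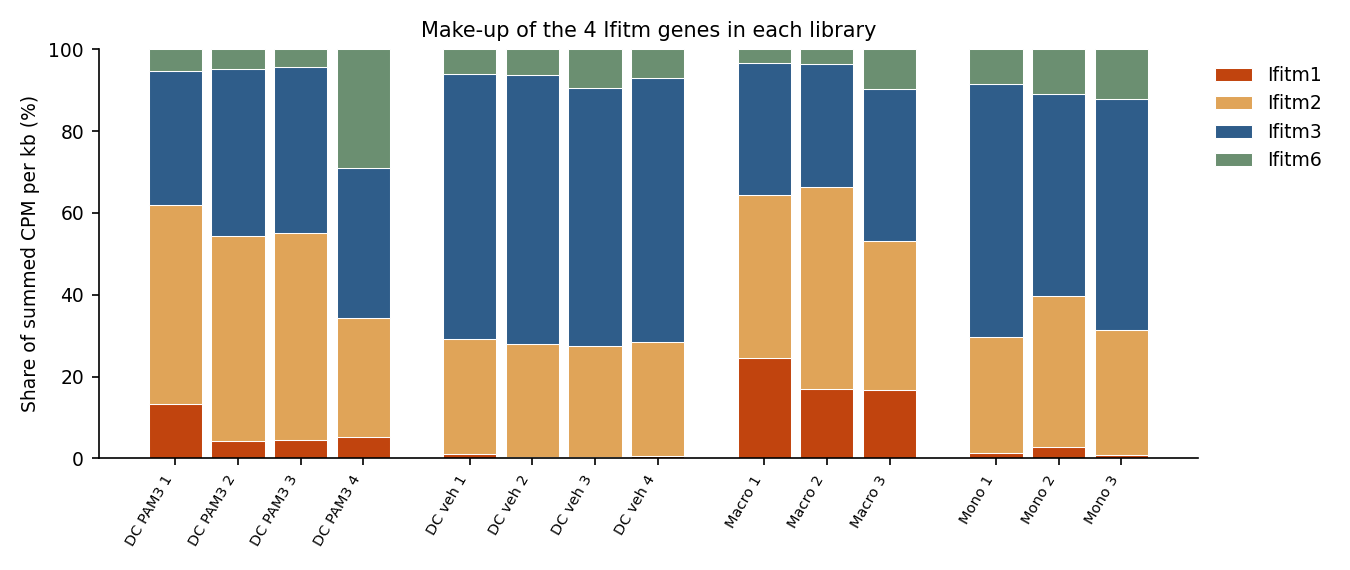
Share of each member in the summed level of the 4 Ifitm genes, in percent of CPM per kilobase of the longest coding transcript, with 1 bar a library. Ifitm3 holds 63.2% to 65.8% of the bar in vehicle libraries and at most 40.9% with PAM3CSK4, and Ifitm1 holds 16.8% to 24.4% in macrophages and at most 2.84% in monocytes.

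Between the baseline populations, Ifitm1 was higher and the other 3 members were lower in macrophages. Ifitm1 was at 48.9, 17.6 and 19.5 CPM in macrophage replicates 1 to 3, against 6.54, 8.59 and 3.13 CPM in monocyte replicates 1 to 3. The groups did not overlap, as for 34.2% of all genes tested, with macrophage replicate 1 far above the others. The log2 change was 2.00 ± 0.42, and 1.55 without that library.

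Ifitm3 showed the opposite direction. It was at 49.8, 23.7 and 33.3 CPM in macrophage replicates 1 to 3, against 244, 115 and 169 CPM in monocyte replicates 1 to 3. Every macrophage library lay below every monocyte library, and the log2 change of -2.27 ± 0.33 moved between -2.54 and -2.0 with any 1 library left out. Monocyte replicate 1, the highest, also had the highest sum of conventional dendritic cell genes among monocytes (4103 CPM, against 773 to 1375 CPM in the others). Macrophage libraries, with the lower Ifitm3 values, held 2999 to 4774 CPM of the same list. Of its 15 genes, 4 were called higher and 1 lower in macrophages. The part of these cells in the Ifitm3 values was not tested.

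Ifitm6 was low in macrophages. It was at 6.25, 3.48 and 10.4 CPM in macrophage replicates 1 to 3, against 40.6, 30.7 and 43.5 CPM in monocyte replicates 1 to 3. The groups lay far apart, with a log2 change of -2.44 ± 0.34. The 16 neutrophil genes summed to 1732 to 4142 CPM in macrophages and 2570 to 3622 CPM in monocytes and overlapped. The sum covers changes in both directions, with 8 of 13 tested genes higher and 4 lower in macrophages. Ltf, Ngp and S100a8, genes of later neutrophil stages, rose by 2.80 ± 0.54, 2.55 ± 0.45 and 2.38 ± 0.40, while Mpo and Elane, genes of early granules, fell by 1.62 ± 0.33 and 1.34 ± 0.27 (adjusted p of 0.0031, 0.0017, 0.0012, 0.0044 and 0.0043). The part of neutrophil RNA in the Ifitm6 difference was not tested.

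Ifitm2 was lower in macrophages by the smallest factor of the 3. It was at 59.2, 37.8 and 31.2 CPM in macrophage replicates 1 to 3, against 109, 82.6 and 88.8 CPM in monocyte replicates 1 to 3. The groups did not overlap. The log2 change was -1.15 ± 0.28, and its call was lost without macrophage replicate 2 (-1.09) or macrophage replicate 3 (-0.95).

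All 4 members passed the threshold in this comparison, 1 as higher and 3 as lower, where 20.2% of 12188 genes tested were called (1564 higher and 904 lower). The groups did not overlap for any of the 4 members, as for 34.2% of all genes tested. As the contrast was used to pick the members, nothing is read from these counts. The 4 genes summed to 164, 82.6 and 94.4 CPM in macrophage replicates 1 to 3, against 400, 237 and 304 CPM in monocyte replicates 1 to 3. Per kilobase of the longest coding transcript, Ifitm1 made up 16.8% to 24.4% of the family in macrophages and 0.804% to 2.84% in monocytes, while Ifitm3 made up 29.9% to 37.3% in macrophages and 49.4% to 61.8% in monocytes. B and plasma cell genes moved with the macrophage group, with 9 of 10 tested genes higher and none lower. NK and T cell genes did so too (10 of 11 higher and none lower, with sums of 124 to 361 CPM in macrophages and 10.6 to 23.2 CPM in monocytes), as did blood progenitor genes (9 of 12 higher and none lower, 873 to 2023 CPM in macrophages and 249 to 655 CPM in monocytes). Genes of classical monocytes fell in 12 of 12 cases (710 to 1536 CPM in macrophages, against 11792 to 13406 CPM in monocytes). The part of these cells in the Ifitm values was not tested.

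**Figure D4:**
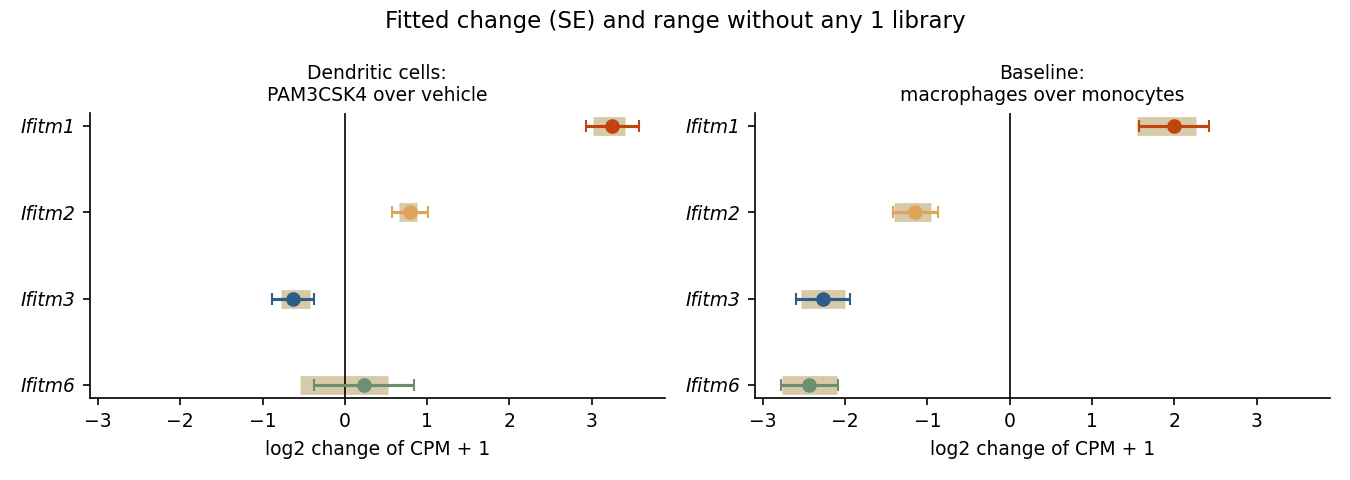
Fitted log2 change of CPM + 1 for each member, in dendritic cells (PAM3CSK4 over vehicle, left) and at baseline (macrophages over monocytes, right), as a point with its standard error, and as a shaded band the range with any 1 library left out. Ifitm1 lies right of 0 in both panels, Ifitm3 lies left of 0 in both, Ifitm2 changes side, and the band of Ifitm6 in dendritic cells crosses 0 (-0.55 to 0.52).

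The levels of each member in the 4 groups can be set side by side across the 2 tables, with a limit. Of low values, 66.6% to 69.0% were whole multiples of the smallest step in the dendritic cell table, against 87.9% to 90.8% in the other. The columns used from the 2 tables come from different libraries, and whether the tables assign reads to genes in the same way was not tested. No test was made across them. For Ifitm3 the means ran from 213 ± 44.3 CPM in vehicle dendritic cells through 176 ± 65.1 CPM in monocytes and 139 ± 37.2 CPM in PAM3CSK4 dendritic cells to 35.6 ± 13.2 CPM in macrophages (SD). The first 3 of these overlapped in their ranges, and the macrophages lay below all of them. For Ifitm2 the order was 153 ± 24.9 CPM in PAM3CSK4 dendritic cells, 93.3 ± 13.6 CPM in monocytes, 88.5 ± 18.2 CPM in vehicle dendritic cells and 42.8 ± 14.6 CPM in macrophages, with monocytes and vehicle dendritic cells indistinguishable beside their spread. For Ifitm1 the PAM3CSK4 dendritic cells (29.9 ± 12.7 CPM) and macrophages (28.7 ± 17.6 CPM) stood together above monocytes (6.09 ± 2.76 CPM) and vehicle dendritic cells (2.16 ± 0.917 CPM). For Ifitm6 the monocytes (38.3 ± 6.73 CPM) and vehicle dendritic cells (29.1 ± 11.2 CPM) overlapped, macrophages (6.70 ± 3.46 CPM) were lowest, and PAM3CSK4 dendritic cells had a median of 19.2 CPM with the single high library described above.

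Reads from related copies limit some of these values. Of the 50-base stretches of the Ifitm2 transcript, 48.5% also occur letter for letter in transcripts of other genes. Of its 100-base stretches 34.9% still do, in the annotated copies Gm11951, Gm45717 and Gm8865. For Ifitm3 the shares were 10.02% and 0%, for the longest Ifitm1 transcript 6.36% and 0%, and for Ifitm6 0% at either length. Ifitm2 is therefore the least certain of the 4. Ifitm1 in vehicle replicates 1 to 3 came out at 213.3, 41.75 and 66.37 of the smallest steps, which are not whole numbers, and in vehicle replicate 4 at 171.97 steps, within 0.03 of a whole number.

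The other genes of the same protein family were scarcely detected. Of 13 symbols listed, which can name a gene more than once, 10 were in the dendritic cell table. Prrt2, a synaptic protein gene, was the single gene to pass the filter on low values (2.34, 1.28, 2.48 and 2.42 CPM in PAM3CSK4 replicates 1 to 4, against 1.22, 1.03, 2.27 and 1.19 CPM in vehicle replicates 1 to 4). Its log2 change was 0.37 ± 0.26 (adjusted p = 0.39) in dendritic cells and -0.0034 ± 0.36 (adjusted p = 0.996) between macrophages and monocytes. Ifitm5, the bone member of the cluster, was at 0.595 to 1.04 CPM with PAM3CSK4 and 0.0256 to 2.40 CPM with vehicle. Ifitm7, on chromosome 16, was at 0.158 to 0.925 CPM with PAM3CSK4 and at most 0.167 CPM with vehicle, and Ifitm10 was at no more than 0.909 CPM in any dendritic cell library. Tmem91 and Prrt1 stayed under 1 CPM in every dendritic cell library, Tusc5 and Syndig1l were at or near the lowest value, and Syndig1 and Tmem233 were at the lowest value in every dendritic cell library. In the other table, Ifitm10 was at 2.63, 1.97 and 0.732 CPM in macrophage replicates 1 to 3 and at most 0.177 CPM in monocytes, while Ifitm7 was at 0.0533 to 0.210 CPM in macrophages and 0.441 to 0.824 CPM in monocytes. Both lay under the filter and were not tested.

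Genes upstream of and beside the family were read from fixed lists in the same fits. Of 23 interferon ligand, receptor and signalling genes tested in dendritic cells, 1 rose and 4 fell, where 5.12% of all genes tested were called (321 higher and 261 lower). Socs3, a feedback inhibitor of cytokine signalling that is itself induced through STAT3, was at 34.0, 173, 166 and 55.0 CPM in PAM3CSK4 replicates 1 to 4, against 9.71, 8.99, 4.24 and 19.9 CPM in vehicle replicates 1 to 4, a log2 change of 3.06 ± 0.53 (adjusted p = 0.0089). Its groups did not overlap, and its call held with any 1 library left out. Il6ra, the interleukin-6 receptor, fell by 1.15 ± 0.21 (adjusted p = 0.011), a call lost without vehicle replicate 2. Ifngr1, a chain of the interferon gamma receptor, fell by 1.02 ± 0.23 (adjusted p = 0.029), and Tyk2, a kinase of the type I interferon receptor, by 0.96 ± 0.21 (adjusted p = 0.025). Irf5, named after its value was seen because it completes the count, fell by 0.98 ± 0.25 (adjusted p = 0.043). The calls of Tyk2, Ifngr1 and Irf5 were not kept in 5, 4 and 6 of the 8 leave-one-out fits. Ifnb1, which encodes interferon beta, was at the lowest value in every dendritic cell library, as were 8 of the 33 genes of the list in all.

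The antiviral effectors that are often induced together with Ifitm genes were mostly below 0 in log2 change in dendritic cells (13 of 40 above). Of the 40 tested, none rose, 1 fell and 9 had an unadjusted p under 0.05, and the list's median log2 change was -0.24 beside 0.20 for all genes. Ifit1bl1, a relative of the RNA-binding Ifit proteins, was at 0.189, 0.862, 0.908 and 0.131 CPM in PAM3CSK4 replicates 1 to 4, against 2.45, 2.77, 2.83 and 2.52 CPM in vehicle replicates 1 to 4 (log2 change -1.30 ± 0.26, adjusted p = 0.016). That call was lost without vehicle replicate 2 or vehicle replicate 3, and 3 antiviral effectors were called without PAM3CSK4 replicate 4. Oas3, a sensor of double-stranded RNA, and the Ifit3 and Ifit3b pair had log2 changes of -1.13 ± 0.35, -1.27 ± 0.42 and -1.19 ± 0.37 (adjusted p of 0.082, 0.095 and 0.083). Ifit3 and Ifit3b are near copies, so reads may be split between them.

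Of 15 interferon-induced GTPases, which act on vacuoles that hold pathogens, limma called none in dendritic cells, with 4 at an unadjusted p under 0.05, and 1 was called without PAM3CSK4 replicate 4. Gbp5 was at 8.66, 26.1, 27.5 and 6.39 CPM in PAM3CSK4 replicates 1 to 4, against 4.36, 6.59, 7.77 and 5.15 CPM in vehicle replicates 1 to 4 (log2 change 1.16 ± 0.42, adjusted p = 0.12). Irgm1 was at -0.69 ± 0.30 (adjusted p = 0.18). The near-identical Tgtp2 and Tgtp1 had log2 changes of -1.22 ± 0.34 and 0.96 ± 0.43 (adjusted p of 0.057 and 0.20), and reads may be split between them.

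None of 17 reported modifiers and partners of IFITM proteins was called, with 4 at an unadjusted p under 0.05 and a median log2 change of 0.29. The nearest to the threshold was Vcp, an ATPase that extracts ubiquitin-marked proteins (0.98 ± 0.26, adjusted p = 0.054), followed by Nedd4, a ubiquitin ligase that acts on IFITM3 (0.78 ± 0.26, adjusted p = 0.099). Zmpste24, a protease that works with IFITM proteins, had a log2 change of 0.74 ± 0.28 (adjusted p = 0.13), and Vapa, an endoplasmic reticulum protein bound by human IFITM3, had 0.80 ± 0.33 (adjusted p = 0.16). Of 11 neighbouring genes on chromosome 7 tested, none was called and 5 had an unadjusted p under 0.05. Psmd13, a proteasome subunit, had the smallest p of them (0.71 ± 0.21, adjusted p = 0.066), followed by Ptdss2 (0.69 ± 0.25), Hras (0.63 ± 0.26) and Rnh1 (0.51 ± 0.21). The log2 change of 3.25 for Ifitm1 was larger than that of every neighbour tested. Since Ifitm1 was picked from this contrast, nothing is read from that.

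In macrophages against monocytes the same lists moved in different directions. Of 15 interferon-induced GTPases, 8 rose and none fell, against 20.2% of all genes called, and the list's median log2 change was 1.13 beside 0.10 for all genes. Iigp1 was at 10.8, 9.98 and 8.95 CPM in macrophage replicates 1 to 3, against 0.513, 0.200 and 0.356 CPM in monocyte replicates 1 to 3 (log2 change 3.01 ± 0.28, adjusted p = 3.2e-05), and its groups lay far apart. Gbp4 and Gbp6 rose by 2.99 ± 0.31 and 2.97 ± 0.34 (adjusted p of 4.7e-05 and 1.0e-04), and Tgtp1, with the limit of its near copy, by 4.36 ± 0.36 (adjusted p = 2.0e-05).

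Of 24 interferon ligand, receptor and signalling genes, 2 rose and 7 fell, where 20.2% of all genes tested were called. Il6ra fell by 2.82 ± 0.27, Ifngr2, a chain of the interferon gamma receptor, by 2.04 ± 0.23 and Il6st, the shared signalling chain of interleukin-6 receptors, by 2.18 ± 0.30 (adjusted p of 3.2e-05, 8.6e-05 and 3.1e-04), while the feedback inhibitor Socs1 rose by 1.89 ± 0.37 (adjusted p = 0.0035). Of 41 antiviral effectors, 4 rose and 6 fell, a share near that of all genes. Among them the DNA-binding Ifi204 was at 3.39, 3.72 and 8.502 CPM in macrophage replicates 1 to 3, against 48.3, 43.0 and 43.1 CPM in monocyte replicates 1 to 3 (log2 change -2.98 ± 0.32, adjusted p = 7.4e-05). Ifi44 and Ifi205 rose by 2.34 ± 0.34 and 2.83 ± 0.54 (adjusted p of 4.9e-04 and 0.0028), and Samhd1, which depletes nucleotides, fell by 1.27 ± 0.26 (adjusted p = 0.0043). Ifi204 and Ifi205 belong to a family of near copies. Without macrophage replicate 1, 5 antiviral effectors were called in place of 10.

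Of 19 modifiers and partners, 4 rose in macrophages and none fell. Cd81, a tetraspanin that forms a complex with IFITM1 at the surface of human B cells, was at 95.8, 62.9 and 87.2 CPM in macrophage replicates 1 to 3, against 14.1, 13.8 and 10.7 CPM in monocyte replicates 1 to 3 (log2 change 2.57 ± 0.26, adjusted p = 4.7e-05). Nedd4 and the tetraspanin Cd9 rose by 2.08 ± 0.40 and 1.82 ± 0.33 (adjusted p of 0.0030 and 0.0020). Of 11 neighbouring genes on chromosome 7, 1 rose. That was Sigirr, an inhibitor of interleukin-1 and Toll-like receptor signalling (1.24 ± 0.31, adjusted p = 0.013), and its call was lost without macrophage replicate 1 or 2.

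**Figure D5:**
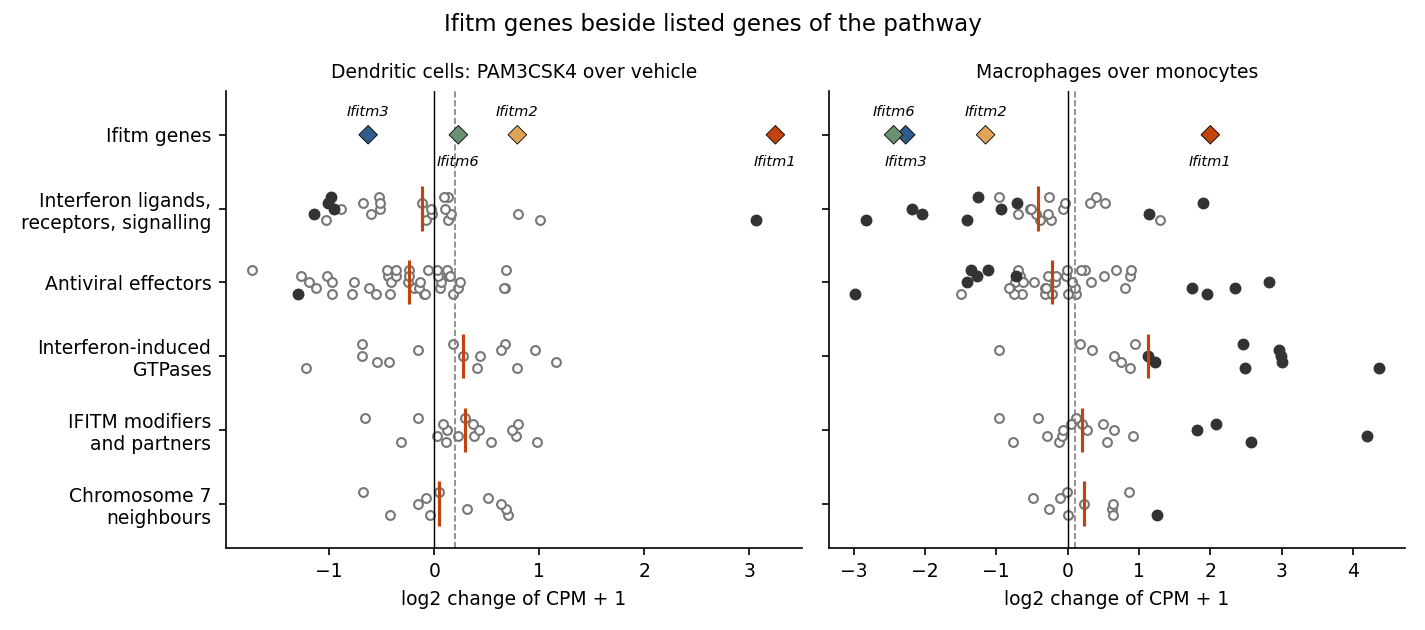
Log2 change of CPM + 1 for each tested gene of 5 lists, with the 4 Ifitm genes above them as diamonds, in dendritic cells (PAM3CSK4 over vehicle, left) and at baseline (macrophages over monocytes, right). Filled circles passed the threshold in the fit over all genes, open circles did not, short red lines are list medians and the dashed line is the median of all genes tested (0.20 and 0.10). In dendritic cells Socs3 (3.06) is the single listed gene near Ifitm1 (3.25), and in macrophages 8 of 15 GTPases are filled, to the right of 0.

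The members varied in different ways across libraries. Over the 8 dendritic cell libraries, which share a treatment split, Pearson's r of log2(CPM + 1) was 0.75 between Ifitm1 and Ifitm2, -0.76 between Ifitm1 and Ifitm3 and -0.33 between Ifitm2 and Ifitm3, and Ifitm6 had r of 0.13, 0.11 and 0.40 with Ifitm1, Ifitm2 and Ifitm3. Over the 6 libraries of macrophages and monocytes, Ifitm2, Ifitm3 and Ifitm6 had r of 0.82 to 0.95 with each other and of -0.84 to -0.62 with Ifitm1. These values follow the group differences and are descriptions without a test.

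Among 9033 genes that averaged 5 CPM or more in the dendritic cell table, the 5 nearest in pattern to Ifitm1 were Tbc1d31 (r = 0.97 over 8 libraries), Trim37, Prim2, Rfc5 and Prim1, and the 5 nearest to Ifitm2 were Cfl1 (0.99), Ergic1, Sf3b2, Armc1 and Cd1d1. Ifitm3 was nearest to Peg13 (0.95), Ahcyl2, Zbtb39, Taf4b and Adcy9, and Ifitm6 to Dhrs7 (0.96), Anxa1, Rint1, Myh10 and Igfbp4. Among 9746 genes of the other table, over 6 libraries, every named gene had r of at least 0.99. These were Pik3ip1, Crebl2, Slc28a2 and Erc1 for Ifitm1, Arhgef7, Sec24b, Dhdh, Fbxo34 and Dennd5a for Ifitm2, Ankfy1, Palm, Gnai2, Tmem50b and Map4 for Ifitm3, and Rab29, S100a4, Msrb1, Slfn2 and S100a6 for Ifitm6. No gene named for a member was named for it in both tables.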

How the data were processed

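RNA was extracted from sorted cells and made into libraries after ribosomal RNA depletion, per the labels' protocols. The submitters' processing notes name STAR 2.5.3a, Partek and mm10. The annotation and strand setting are not given in these sources, so overlapping and antisense genes cannot be told apart. The authors deposited values under the name FPKM, with 0.0001 added, but the deposited values are treated as CPM. In each library 66.6% to 90.8% of values up to 50 steps lay within 0.05 of a whole multiple of 1 step, against at most 11.6% with a step 7% longer. Genes of any length shared that step, which division by length would not leave, although in the dendritic cell table fewer long genes (58.0% to 60.9%) than short ones (76.5% to 80.1%) lay on it. The listed genes summed to 350368 to 578711 CPM a library. Too few values came out whole for a count test. A further 3 columns of the second table, named for dendritic cells without a treatment, match no sample by name and were not used, so the planned tests of dendritic cells against the other populations were not run.

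Each comparison was fitted over the whole table with limma 3.58.1 (eBayes with trend, two-sided) in R 4.3.3 on log2(CPM + 1), for genes at 1 CPM or more in at least the number of libraries of the smaller group, with Benjamini-Hochberg adjustment and a threshold of 0.05. The fit was tested on simulated data. Summaries used Python 3.11.15, pandas 2.3.3 and numpy 2.4.6, and plots matplotlib 3.10.9. The members and lists were chosen with earlier results of these data known. Named genes are the members, the measured genes of their protein family, up to 4 genes of each interferon, partner and neighbour list by unadjusted p, sorting markers, and the 5 nearest genes by Pearson's r. Some genes that this rule names are not reported here. Transcript lengths and shared stretches came from GENCODE vM21. Alternatives changed the pseudocount, filter, scaling, weights or replicate block, or left out 1 library. The main fits did not pair libraries by replicate number. Deviations of same-numbered libraries had correlations of -0.115 to 0.300 in dendritic cells and 0.0836 to 0.183 between macrophages and monocytes. Each macrophage replicate was nearest to the monocyte replicate of its own number. In dendritic cells this held for replicates 2 and 4 and not for replicates 1 and 3. Whether the numbers pair the libraries was therefore not settled.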

Additional observations from a re-analysis of the deposited data

Results flagged for a closer look

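In 14 groups of 4 libraries, the highest or lowest library was compared with the others by the ratio of its gap to the whole range against Dixon's 95% critical value for 4 libraries. Chance passes it in about 1 of 20 groups. Ifitm6 in PAM3CSK4 replicate 4, at 168 CPM, had a ratio of 0.978. Ifitm10 in the same library, at 0.909 CPM, had a ratio of 0.920. Ifitm7 in vehicle replicate 4, at 0.167 CPM, had a ratio of 0.842, and this value amounts to few reads.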

How the results depend on the processing

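Calls of members are counted as a description, since these contrasts chose them. In dendritic cells the log2 change of Ifitm1 was 2.23 with a pseudocount of 5, against 3.25. The 582 genes called became 32 with no filter on low values, 1649 with array weights and 184 to 1008 with any 1 library left out. With the replicate block, 976 genes were called. The 1 member called became 2 after rescaling to a common total or quantile normalisation (Ifitm2 added), 2 after median centring (Ifitm3 added), 3 with array weights (Ifitm2 and Ifitm3 added), 2 with the replicate block (Ifitm2 added) and 1 to 2 with any 1 library left out. The sign of Ifitm6 turned with array weights (-0.25). The 6 listed interferon, partner and neighbour genes called became 0 with no filter, 10 after quantile normalisation, 16 with weights, 14 with the replicate block and 1 to 11 with any 1 library left out. Of the calls, 55.2% were rises as deposited, against 41.4% with totals rescaled, 29.9% with medians centred and 35.1% with quantiles matched. Between macrophages and monocytes the 4 members kept their directions. The 2468 genes called became 5471 with weights, the log2 change of Ifitm6 was -1.92 with a pseudocount of 5, and the 32 listed genes called became 59 with weights and 21 (without macrophage replicate 1) to 44 (without monocyte replicate 2) with any 1 library left out. There 63.4% of calls were rises as deposited, and 72.9%, 51.3% and 44.8% under the same 3 scalings. The replicate block changed no call of a member there. The cause of these shifts was not tested. With 3 or 4 libraries a group, their number limits the precision.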
